A study of Mus musculus with 6 samples.

Results

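Mt1 and Mt2 encode metallothioneins, small cysteine-rich proteins that bind zinc and copper, and these 2 genes were followed across 6 expression arrays of mouse presomitic mesoderm (PSM), which buds off somites at its front end. They were chosen by annotation: every probe set assigned to the symbol Mt1 or Mt2 alone was taken, which gave 1 probe set for Mt1 (1422557_s_at) and 1 for Mt2 (1428942_at), among 10290 genes with a probe set of their own in the table. Both genes were picked with their mutant and control values already known, so those values are described here without a test. The mutant genotype was R26R AC/AC;T-Cre and the control genotype R26R AC/AC, so both groups carried the AC allele on both copies of the ROSA26 locus, and the strain background was labelled C57BL6/6J in both. T-Cre is a Cre recombinase under the promoter of T (Brachyury), active in the primitive streak and the mesoderm that leaves it. The labels do not spell out AC; it is taken here to mean A-CREB, a protein that blocks CREB-type factors from binding DNA and is made once Cre has acted. No group carried T-Cre without the AC allele, so effects of Cre and of AC cannot be told apart. Each array held the RNA of 1 pool of 3 dissected anterior PSMs of embryonic day 8.75, with 3 pools per genotype that the labels call biological replicates.

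Metallothioneins buffer free zinc and take up toxic metals and reactive oxygen species. Their genes are switched on by MTF-1, a zinc-sensing transcription factor that binds metal response elements in their promoters, and also by glucocorticoids, oxidative stress, cytokines and hypoxia. In the mouse embryo they are strongly expressed in the visceral endoderm of the yolk sac and later in the liver.

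The start sites of Mt2 and Mt1 lie 6471 bases apart on chromosome 8 (GRCm38.p6), on the plus strand, with no other protein-coding gene between them in the RefSeq gene table. Their promoter windows are shown because they hold matches to the element through which metal acts on these genes. Each window is RefSeq sequence from 250 bases before to 50 bases after the start site, and capitals mark the core of the metal response element, TGCACNC or TGCGCNC, on either strand. The Mt1 window is chr8:94178839-94179138 and the Mt2 window chr8:94172368-94172667, both in GRCm38.p6 and on the plus strand.
Mt1: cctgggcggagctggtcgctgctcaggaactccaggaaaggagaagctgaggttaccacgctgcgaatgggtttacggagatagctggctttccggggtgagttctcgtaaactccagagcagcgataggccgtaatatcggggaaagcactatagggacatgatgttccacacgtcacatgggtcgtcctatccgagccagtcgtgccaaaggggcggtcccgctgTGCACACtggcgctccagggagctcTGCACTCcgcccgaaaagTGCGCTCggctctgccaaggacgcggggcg
Mt2: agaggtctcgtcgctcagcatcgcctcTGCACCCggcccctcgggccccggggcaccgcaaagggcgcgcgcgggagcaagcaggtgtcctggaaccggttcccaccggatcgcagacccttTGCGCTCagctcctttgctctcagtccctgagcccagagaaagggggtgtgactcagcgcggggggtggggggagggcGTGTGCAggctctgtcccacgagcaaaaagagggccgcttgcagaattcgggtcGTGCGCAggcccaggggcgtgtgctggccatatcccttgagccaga
The Mt1 window held 3 matches to this core, which began at positions −23, 2 and 20, counted from 0 at the start site. The Mt2 window held 4 matches, which began at −223, −128, −50 and 4, the last 2 of them on the minus strand. Of 32851 promoter windows of this length in the table, 25.7% held at least 1 match, 1.97% at least 3 and 0.517% at least 4. The full cAMP response element TGACGTCA, the site of CREB, was in neither window and in 1.79% of all windows. Its short form TGACG occurred 1 time in the Mt1 window, on the minus strand from −77 to −73, and 0 times in that of Mt2, against 20.8% of all windows with a match. The antioxidant element TGACNNNGC occurred 1 time in the Mt2 window, from −79 to −71, and 0 times in that of Mt1, against 12.4% of all windows. The E-box CACGTG was in neither window and in 7.15% of all windows. These matches describe the letters and show no binding. The windows follow the RefSeq start sites alone. Any other start site, and the sequence beyond the windows on either side, was not searched, so a count of 0 holds for the window only.

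Both genes had higher signal in every mutant pool than in any control pool. Values are the authors' scaled linear signal. Mt1 had 1447, 601 and 488 in mutant 1, 2 and 3, against 299.7, 251 and 249.7 in control 1, 2 and 3. Mt1 was thus high in mutant 1 and lower in mutant 2 and mutant 3, and the groups did not overlap. Its mean was 845 ± 524 in mutant and 267 ± 28.4 in control (SD, n = 3 pools each). Mt2 had 4157, 2612 and 1544 in mutant 1, 2 and 3, against 490.2, 695 and 873 in control 1, 2 and 3. Its groups did not overlap either, mutant 1 was again the highest, and control 1 was the lowest pool. The Mt2 mean was 2771 ± 1314 in mutant and 686 ± 192 in control (SD, n = 3 pools each). Over all 7245 genes tested, 9.73% had 3 mutant values above the 3 control values. Since these values chose the genes, nothing is read from that share. The signal of a probe set has its own scale, so the levels of Mt1 and Mt2 were not set against each other.

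**Figure D1:**
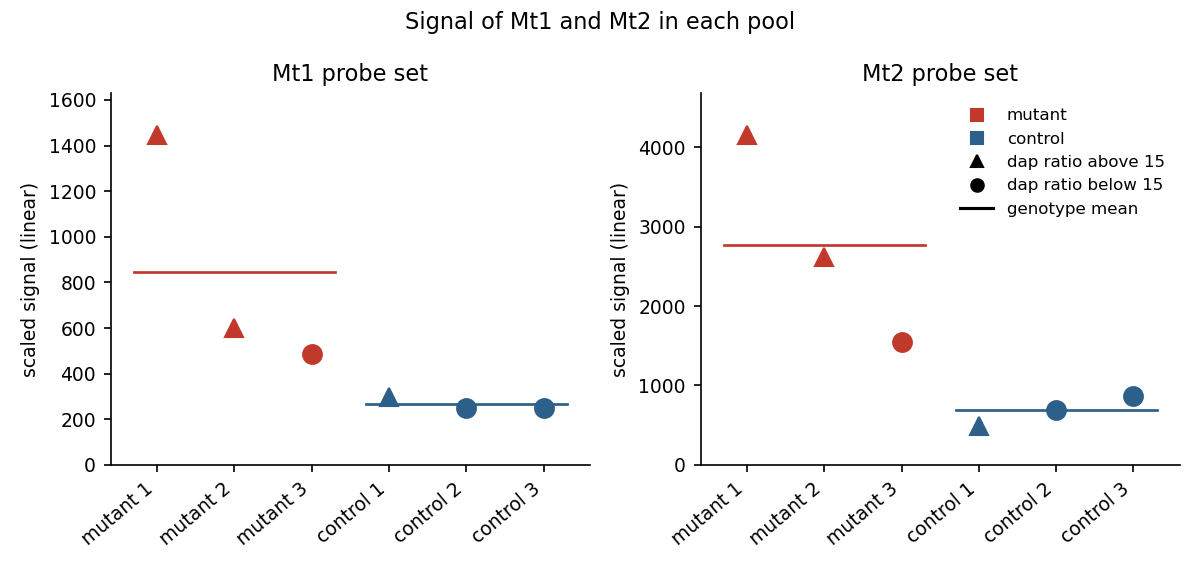
Scaled linear signal (vertical axis) of the Mt1 and Mt2 probe sets in each pool (horizontal axis), with mutant pools in red, control pools in blue and horizontal lines at the genotype means. Triangles are arrays with a dap spike-in ratio above 15, and mutant 1 is the highest pool in both panels, at 1447 for Mt1 and 4157 for Mt2.

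On the scale of log2(signal + 1), Mt1 was 1.50 higher in mutant than in control (SE 0.33, n = 3 pools each), which is 2.82-fold, and Mt2 was 1.94 higher (SE 0.32, n = 3 pools each), which is 3.83-fold. Among the 7245 tested genes, the 5th largest rise was that of Mt2 and the 8th largest that of Mt1. Genes below the signal filter have no place in this ranking. The 3 control pools of Mt1 read below the filter's geometric mean signal of 349, so Mt1 passed through its mutant pools. Since these values chose the genes, nothing is read from the ranks. The mutant pools varied more than the control pools. The highest mutant pool had 2.97 times the Mt1 signal of the lowest mutant pool, and the highest control pool had 1.20 times that of the lowest control pool. For Mt2 these ratios were 2.69 among mutant pools and 1.78 among control pools. The lowest mutant pool still had 1.63 times the Mt1 signal and 1.77 times the Mt2 signal of the highest control pool. In bulk tissue, more cells that express a gene and more of its RNA per cell cannot be told apart.

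A labelling measure differed between the arrays. The 3' to 5' signal ratio of the dap control transcript, which is added before labelling, was 23.8, 19.6 and 10.2 in mutant 1, 2 and 3, against 22.9, 12.2 and 11.1 in control 1, 2 and 3. The arrays therefore fell into a set above 15, with 2 mutant pools and 1 control pool, and a set below 15, with 1 mutant pool and 2 control pools. Within the set above 15, the log2 difference between mutant and control was 1.64 for Mt1 and 2.75 for Mt2. Within the set below 15, it was 0.96 for Mt1 and 0.99 for Mt2. Both genes were higher in mutant within each set, by more in the set with the high ratio, a difference between sets that was not tested. The part of this measure in the Mt1 and Mt2 differences was not tested either. Without mutant 1 the difference was 1.02 for Mt1 and 1.59 for Mt2. The bioB control, added at hybridization, read 62.4 to 108 in 5 arrays and 531 in control 1. Median signal was 491 to 535 over the arrays.

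**Figure D2:**
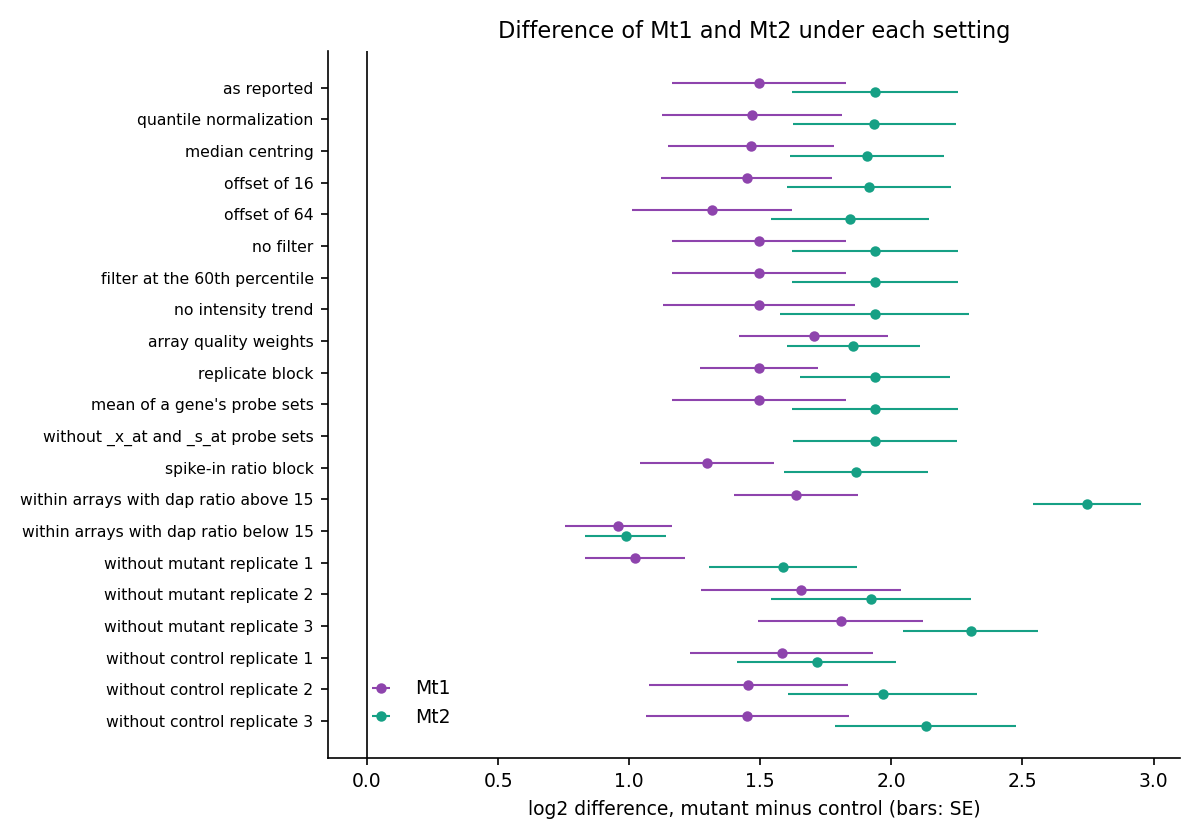
Log2 difference between mutant and control (horizontal axis, bars are SE) of Mt1 and Mt2 under each processing setting (vertical axis). Every point lies above 0, from 0.96 to 1.81 for Mt1 and from 0.99 to 2.75 for Mt2, and Mt1 has no point without _x_at and _s_at probe sets because its only probe set is of that kind.

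No tested zinc transporter gene was called, and the gene of the zinc sensor MTF-1 was not tested. Of 25 listed genes of zinc transport and sensing, 17 were in the table and 14 were tested. Besides Mtf1, the transporters Slc39a3 (0.29 and 0.35 in its probe sets) and Slc39a4 (0.43) were below the signal filter, without a test. By limma with Benjamini-Hochberg adjustment, 0 of 14 rose and 0 fell, while 1.70% of all tested genes were called, 0.594% higher and 1.10% lower in mutant. At an unadjusted p under 0.05 there were 2 of 14 zinc genes, against 1089 of all 7245 tested genes, and the list's median log2 difference was 0.06, against −0.01 for all tested genes. The 2 genes were Slc39a8 and Slc30a4. Slc39a8, a cell surface importer of zinc and manganese, had 1530, 997 and 876 in mutant 1, 2 and 3, against 714, 690.3 and 708 in control 1, 2 and 3. The groups did not overlap, and mutant 1 was the highest pool, as for Mt1 and Mt2. Its log2 difference was 0.65 (SE 0.19, limma adjusted p = 0.134), and over the alternatives adjusted p lay between 0.00639 and 0.373. With the spike-in ratio as a block its adjusted p was 0.0476, and without mutant 1 its difference was 0.41 (adjusted p = 0.373). Slc30a4, a zinc exporter of intracellular vesicles, had 0.49 (SE 0.20, adjusted p = 0.288), and Slc39a6, an importer, −0.20 (SE 0.10, adjusted p = 0.375).

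The main exporter of zinc at the cell surface, Slc30a1, is a known target of MTF-1 in the mouse and was named for that role after its values were seen. It had 431, 367 and 398 in mutant 1, 2 and 3, against 336, 366 and 298 in control 1, 2 and 3, with a log2 difference of 0.26 (SE 0.15, limma adjusted p = 0.456). The groups did not overlap, but mutant 2, the lowest mutant pool, and control 2, the highest control pool, were nearly equal. Mtf1, which encodes MTF-1, was below the signal filter in each of its 3 probe sets, whose log2 differences were −0.02, 0.24 and −0.22, without a test.

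No tested copper or iron gene was called either, while 1.70% of all tested genes were. Lists this short cannot be told from that share. Of 9 tested copper genes 0 were called by limma, with 2 at an unadjusted p under 0.05 (1089 of 7245 over all tested genes) and a median of 0.09. With array quality weights Ccs (adjusted p = 0.0175) and Cox17 (adjusted p = 0.0417) were called, and Atox1, a copper chaperone, was called within the arrays with a dap ratio below 15 (adjusted p = 0.0458). Ccs, the chaperone that loads copper into Sod1, had 634, 487 and 496 in mutant 1, 2 and 3, against 412, 317 and 383 in control 1, 2 and 3. Its groups did not overlap, and its log2 difference was 0.54 (SE 0.17, adjusted p = 0.154). Atp7a, a copper-exporting ATPase, had −0.22 (adjusted p = 0.313), and Cox17, a copper chaperone of mitochondria, 0.24 (adjusted p = 0.354). Of 8 tested iron genes 0 were called, and up to 1 higher and 1 lower under the alternatives, with 1 at an unadjusted p under 0.05 and a median of −0.10. That gene was Slc40a1, the iron exporter ferroportin, at 0.55 (SE 0.15, adjusted p = 0.0922). Ireb2, an iron-regulatory RNA-binding protein, had −0.34 (adjusted p = 0.359), and Tfrc, the transferrin receptor, −0.16 (adjusted p = 0.500).

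**Figure D3:**
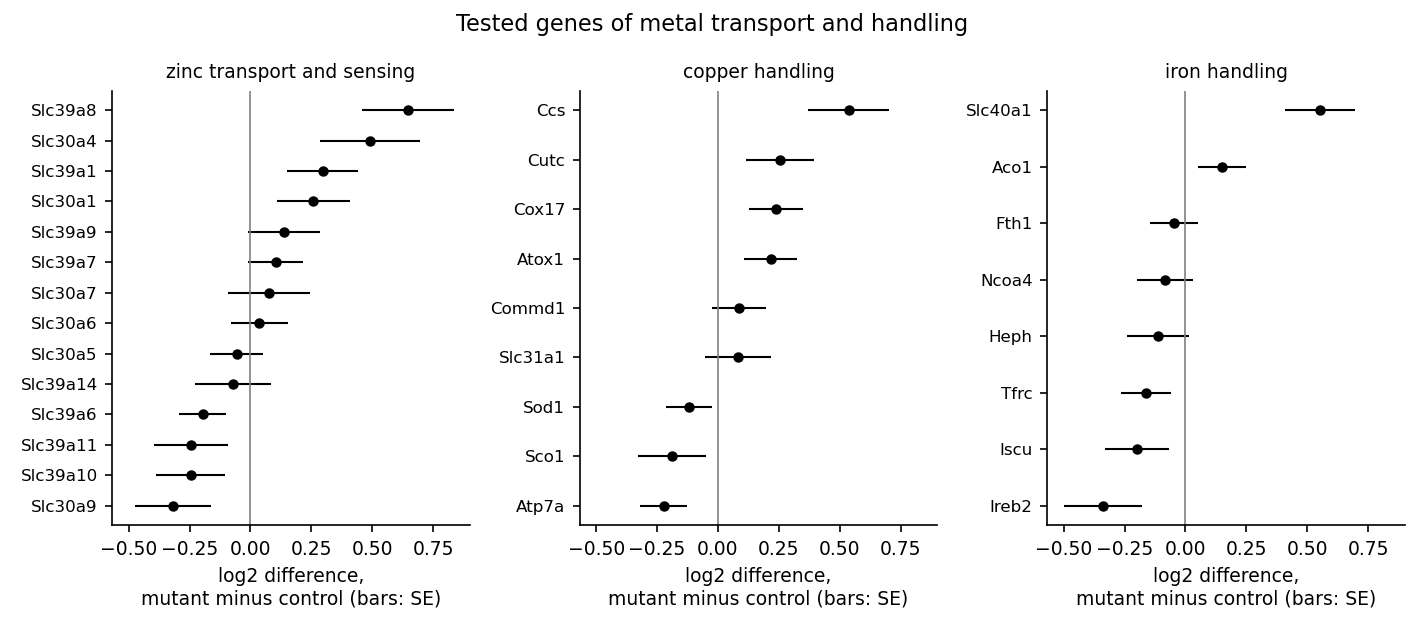
Log2 difference between mutant and control (horizontal axis, bars are SE) of the tested genes (vertical axis) of zinc, copper and iron handling. The highest gene of each panel is Slc39a8 at 0.65, Ccs at 0.54 and Slc40a1 at 0.55, and 0 genes in the 3 panels were called.

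Genes of the other known routes of metallothionein induction were also looked at. Over all tested genes 1.70% were called, so 0 called in a list this short is not read as a result about the route. For the Nrf2 and glutathione route 20 genes were listed and 17 were in the table. Nqo1, Hmox1, Gss, Srxn1 and Gstm1 were below the signal filter and not tested. Of 12 tested genes of the Nrf2 and glutathione response to oxidative stress, 0 were called by limma and 2 had an unadjusted p under 0.05 (1089 of 7245 over all tested genes), with a median log2 difference of 0.07. Nfe2l2, which encodes Nrf2, had 1131, 1265 and 1058 in mutant 1, 2 and 3, against 775, 887 and 903 in control 1, 2 and 3. Its groups did not overlap, with a difference of 0.43 (SE 0.13, adjusted p = 0.140). Sqstm1, an autophagy receptor, had 0.33 (adjusted p = 0.328), and Gclm, a subunit of the enzyme that starts glutathione synthesis, 0.27 (adjusted p = 0.425).

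The glucocorticoid list had 13 genes, with 9 in the table, and Per1, Klf9 and Dusp1 were below the signal filter. Of its 6 tested genes 0 were called by limma, and 0 had an unadjusted p under 0.05. Tsc22d3, or GILZ, a glucocorticoid-induced gene, had −0.26 (adjusted p = 0.375), Errfi1, an inhibitor of EGF receptor signalling, 0.16 (adjusted p = 0.551), and Zbtb16, a zinc finger repressor, −0.18 (adjusted p = 0.675). The list of Stat3 and acute phase genes had 15 genes, with 9 in the table. Stat3, Socs3, Cebpb, Cebpd and Saa3 were below the signal filter and not tested. Of its 4 tested genes 0 were called by limma, with 0 at an unadjusted p under 0.05. Pim1, a kinase induced by Stat3, had 0.36 (adjusted p = 0.338), Lifr, the receptor of leukaemia inhibitory factor, −0.14 (adjusted p = 0.652), and Slc39a14, a zinc importer of the acute phase, −0.07 (adjusted p = 0.880).

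Of 17 listed heat shock and immediate early genes, 12 were in the table and 8 were tested. By limma 0 of the 8 were called and 0 had an unadjusted p under 0.05. Egr1, an immediate early gene below the signal filter, had 399, 379 and 333 in mutant 1, 2 and 3. In control 1, 2 and 3 it had 77.5, 62.1 and 56.8, a log2 difference of 2.49, without a test. Also below the filter were Hspb1 (0.45), Ier3 (0.0018) and Atf3 (−0.16). Bag3, a co-chaperone, had −0.44 (adjusted p = 0.433), Ier2, an immediate early gene, −0.24 (adjusted p = 0.439), and Hspa1b, an inducible Hsp70, 0.33 (adjusted p = 0.714). The hypoxia list had 16 genes, with 14 in the table and 12 tested. Here too 0 were called by limma and 0 had an unadjusted p under 0.05. P4ha2, a collagen prolyl hydroxylase, had −0.25 (adjusted p = 0.445), Kdm3a, a histone demethylase, −0.21 (adjusted p = 0.506), and Slc2a1, the glucose transporter, 0.11 (adjusted p = 0.662).

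Most tested targets of p53, a stress-responsive transcription factor, rose. Of 13 tested targets 9 rose by limma, against 0.594% of all tested genes, and 4 to 12 rose over the alternatives, with 4 without mutant 1 and 5 without mutant 2. Cdkn1a, a cyclin-dependent kinase inhibitor, had 2089, 2221 and 1751 in mutant 1, 2 and 3, against 343, 330.3 and 380.5 in control 1, 2 and 3. Its mutant pools lay close together, and mutant 2 was the highest of them. Ccng1, or cyclin G1, had 9349, 10023 and 8560 in mutant 1, 2 and 3, against 1955, 1830 and 1760 in control 1, 2 and 3. The other targets that rose were Trp53inp1 (log2 difference 2.30), Phlda3 (1.90), Perp (1.24), Pmaip1 (0.99), Zmat3 (0.96), Plk2 (0.80) and Apaf1 (0.59).

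No tested neighbour on the chromosome was called. Of the 16 nearest protein-coding genes, 8 on each side of the pair, 7 were in the table and 6 were tested. By limma 0 of the 6 were called, and 0 had an unadjusted p under 0.05. Their log2 differences ran from −0.33 to 0.02, with a median of −0.07. The other metallothionein genes, Mt3 and Mt4, are among these neighbours and were not analysed here, since no row of the table names them.

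Markers of visceral and yolk sac endoderm, a tissue rich in metallothionein, moved with Mt1 and Mt2 in part. Of 24 listed markers, 13 were in the table and 10 were tested, and 9 of the 10 had positive values, as did 47.6% of all tested genes. By limma 0 were called, 3 had an unadjusted p under 0.05 (1089 of 7245 over all tested genes), and the median log2 difference was 1.17, or 0.46 without mutant 1 and 0.73 without control 2. The summed signal of the 13 markers was 35803, 12212 and 8831 in mutant 1, 2 and 3, against 11967, 4694 and 7851 in control 1, 2 and 3. Mutant 1 was the highest pool, as for Mt1 and Mt2, but the groups overlapped, since control 1 lay above mutant 3. This was not particular to visceral endoderm. Mutant 1 was also highest in the summed signal of gut endoderm, surface ectoderm, blood, neural tube and notochord markers. Among the 13, Apoa2 (0.84), Cubn (1.43) and Mttp (1.22 and 0.38 in its probe sets) were below the signal filter, without a test. Spink1, a trypsin inhibitor of endoderm, had 1.15 (SE 0.40, adjusted p = 0.203), and Apoe, an apolipoprotein, 1.17 (SE 0.42, adjusted p = 0.213). The count of endoderm markers that rose was 7 with the replicate number as a block, where 74 of all 7245 tested genes rose. It was 6 with array quality weights, where 402 of 7245 rose.

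Some further markers of that endoderm were named after their values were seen. Ttr, the transport protein transthyretin, had 11528, 3458 and 2405 in mutant 1, 2 and 3, against 3857, 876 and 2073 in control 1, 2 and 3. Afp, alpha-fetoprotein, had 7246, 2517 and 1246 in mutant 1, 2 and 3, against 2113, 617 and 1308 in control 1, 2 and 3. Rbp4, the carrier of retinol, had 3235, 849 and 767 in mutant 1, 2 and 3, against 755, 358 and 675 in control 1, 2 and 3. Apoa1, an apolipoprotein, had 3230, 278 and 395 in mutant 1, 2 and 3, against 386, 121 and 337 in control 1, 2 and 3. Not all markers rose in this way. Gata6, an endoderm transcription factor, had 514, 469 and 330 in mutant 1, 2 and 3, against 462, 459 and 582 in control 1, 2 and 3. Its log2 difference was −0.21, and those of Dab2 and Lrp2 were 0.31 and 0.28. The markers differed in how mutant 3 stood to control 1. Of the 10 tested, 4 were higher in mutant 3 (Rbp4, Apoa1, Lrp2 and Dab2), as Mt1 and Mt2 were, and 6 were lower in it (Ttr, Afp, Spink1, Apoe, Apob and Gata6). Mutant 2 and control 1 had nearly the same marker sum, with a ratio of 1.02, and the signal in mutant 2 was 2.01 times that of control 1 for Mt1 and 5.33 times for Mt2. Mutant 3 had 0.738 times the marker sum of control 1, with 1.63 times its Mt1 signal and 3.15 times its Mt2 signal. Mutant 3 had 1.12 times the marker sum of control 3, with 1.95 times its Mt1 signal and 1.77 times its Mt2 signal. These pool pairs were chosen after the values were seen and have no replicate check, and the ratios of the other pairs are not shown. The linear sum is weighted to its brightest markers, so a similar sum does not show a similar amount of endoderm. Between mutant 2 and control 1, Rbp4 was higher in mutant 2 (849 against 755) and Ttr lower (3458 against 3857). The part of endoderm in the Mt1 and Mt2 differences was not tested.

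**Figure D4:**
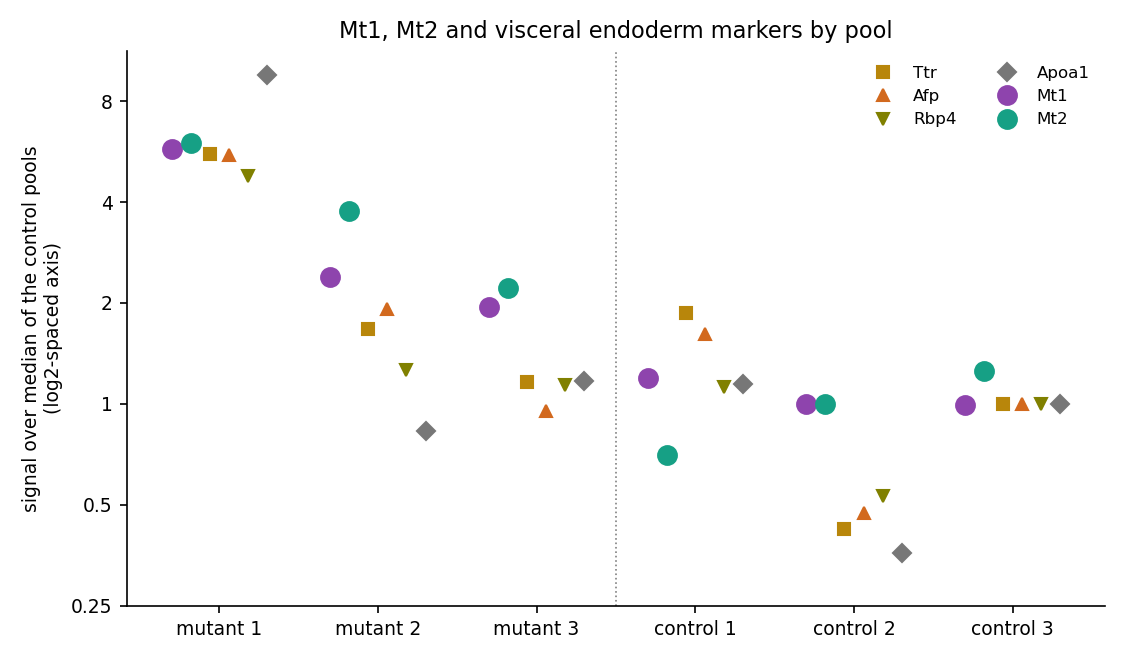
Signal of Mt1, Mt2 and the visceral endoderm markers Ttr, Afp, Rbp4 and Apoa1 over the median of the control pools (vertical axis, log-spaced) in each pool (horizontal axis), with mutant pools left of the dotted line. All 6 genes are highest in mutant 1, but the markers shown were chosen after their values were seen. The marker Gata6, not shown, is highest in control 3. Mutant 3 lies above control 1 for Mt1, Mt2, Rbp4 (767 in mutant 3 and 755 in control 1) and Apoa1 (395 in mutant 3 and 386 in control 1), and below it for Ttr (2405 in mutant 3 and 3857 in control 1) and Afp (1246 in mutant 3 and 2113 in control 1).

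Markers of other tissues also differed. Over all 7245 tested genes, 0.594% were called higher and 1.10% lower in mutant. Summed signal of the 18 PSM and somite markers in the table was 10205 to 14355 in mutant pools and 15860 to 20021 in control pools. Mesp1, Mesp2, Lfng, Tbx18 and Cer1 among them were below the signal filter. Of 13 tested, 2 fell by limma, Ripply2, which sets the somite boundary (−1.56, adjusted p = 0.000622), and Pcdh8, a protocadherin (−1.29, adjusted p = 0.0485), and 1 rose, Pax3, a factor of the dorsal somite and neural tube (0.94, adjusted p = 0.0145). Summed signal of 14 surface ectoderm markers was 33592, 31933 and 31247 in mutant 1, 2 and 3, against 22771, 25305 and 25894 in control 1, 2 and 3. The pools stood in the same order as for Mt2. Of 9 tested surface ectoderm genes 3 rose, namely the epithelial adhesion gene Epcam (0.60, adjusted p = 0.0196), Krt19, a keratin of simple epithelia (1.12, adjusted p = 0.0240), and the p53 target Perp. Of 10 tested gut endoderm markers 1 rose, Epcam, and 1 fell, Sox17 (−1.06, adjusted p = 0.0250). Of 5 blood markers 1 rose, the carbonic anhydrase Car2 (0.72, adjusted p = 0.0428). The embryonic globin Hbb-bh1 had 0.50 (adjusted p = 0.0671), and Tal1, a transcription factor of blood and endothelial precursors, −0.74 (adjusted p = 0.141). Summed signal of 8 blood markers was 62681, 58144 and 44690 in mutant 1, 2 and 3, against 32151, 40262 and 44678 in control 1, 2 and 3. Here too the pools stood in the order of Mt2, with mutant 3 and control 3 nearly equal. Of 8 endothelial markers 1 fell, Kdr, a VEGF receptor (−0.82, adjusted p = 0.0154), with −0.72 for Aplnr, the apelin receptor (adjusted p = 0.0538). Summed signal of 10 endothelial markers was 7030 to 9716 in mutant pools and 11861 to 12720 in control pools. Among 5 lateral and intermediate mesoderm genes 3 fell, Prrx1, a homeobox gene (−1.32, adjusted p = 0.00178), Hand2, a bHLH factor (−0.95, adjusted p = 0.0130), and Foxf1, a forkhead factor (−0.87, adjusted p = 0.0240). The 2 not called were Bmp4, a secreted growth factor (0.62, adjusted p = 0.258), and Osr1 (0.00023). Pax8 (0.59) and Lhx1 (0.46 and 0.43 in its probe sets) were below the signal filter, without a test. Summed signal of 7 lateral and intermediate mesoderm markers was 3747 to 4467 in mutant pools and 6210 to 6419 in control pools. By limma 0 of 5 tested neural tube markers were called, with 0 at an unadjusted p under 0.05. Sox2 had 0.23 (adjusted p = 0.526) and Ncam1 0.12 (adjusted p = 0.670). Of 13 listed, 9 were in the table, and those below the signal filter were not tested. They had 0.91 (Neurog2), 0.87 (Pou3f1), 0.68 (Pax6) and 0.59 (Sox1). Summed signal of the 9 was 10428 to 13889 in mutant pools and 10042 to 12475 in control pools. Of 3 notochord and floor plate markers 1 rose, Krt19, with 0.37 for the forkhead gene Foxa2 (adjusted p = 0.452). Their summed signal was 3714 to 5258 in mutant pools and 3118 to 3909 in control pools. With each pool left out in turn, Ripply2 and Prrx1 were called all 6 times and Hand2 5 times, but not without mutant 1. Pcdh8 and Foxf1 were not followed singly in this check. Pax3 lost its call without mutant 1 or mutant 2. Epcam, Krt19, Sox17, Car2 and Kdr each lost theirs without mutant 1, mutant 2, control 2 or control 3, with adjusted p up to 0.106 for Epcam and 0.140 for Krt19. Perp lost its call without mutant 1, mutant 2 or control 2 (adjusted p up to 0.170). The surface ectoderm count was 0 without mutant 1, mutant 2 or control 2 and 1 without control 3, and the lateral mesoderm count was 1 without mutant 1. Over all alternatives, 0 to 7 surface ectoderm, 0 to 4 gut endoderm and 0 to 4 blood markers rose, while 0 to 5 endothelial, 1 to 7 PSM and somite and 1 to 3 lateral mesoderm markers fell. The count of all called genes also moved, from 19 of 7245 without mutant 1 to 943 of 7245 with array quality weights. The ranges of marker counts follow that in part and are not read as a trait of these tissues. The part of these tissues in the Mt1 and Mt2 differences was not tested.

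The profiles of Mt1 and Mt2 were compared with each other and with the other genes as a description. Across the 6 pools, Pearson's r between Mt1 and Mt2 was 0.92, and 0.71 on deviations from the genotype means. The pools share depth, labelling and the genotype difference. The Mt1 probe set is of the _s_at kind, which can match more than 1 transcript, and whether it also binds Mt2 RNA was not tested. Of 7243 other tested genes, 36 had an r over 0.95 with the mean of the standardized Mt1 and Mt2 profiles. The most alike was Reep5, a protein that shapes the endoplasmic reticulum (r = 0.996), with 2027, 1581 and 1357 in mutant 1, 2 and 3, against 1070.0, 1047 and 1063 in control 1, 2 and 3. After it came Gap43, a growth cone protein (0.991), Acta2, smooth muscle actin (0.989), and the zinc importer Slc39a8 (0.981). Then came Nit2, an amidase (0.981), Krt19 (0.979), Sptlc1, a subunit of the first enzyme of sphingolipid synthesis (0.976), Chchd5 (0.975), Anxa2, an annexin (0.975), and Pigu, of the complex that attaches GPI anchors (0.975). Likeness to a profile that is higher in mutant fixes their direction, so no test is given for it. Slc39a8 was the only 1 of the 10 that is on the zinc, copper or iron list.

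**Figure D5:**
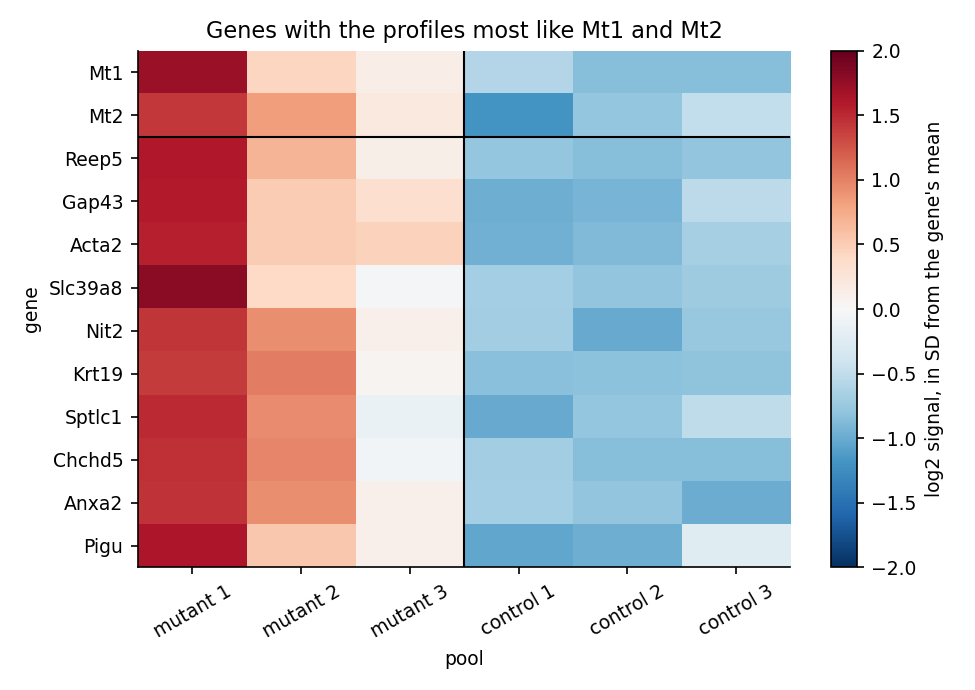
Log2 signal, in SD from each gene's own mean (colour), of Mt1, Mt2 and the 10 genes with the most similar profile (vertical axis) in each pool (horizontal axis). Mutant 1 is the highest pool in all 12 rows, and r with the mean metallothionein profile runs from 0.975 to 0.996.

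On deviations from the genotype means, which leave out the difference between genotypes, 37 of the 7243 other tested genes had an r over 0.95 with the metallothioneins. With only 6 pools such values can arise by chance, here as without taking deviations. No chance level was computed, so nothing is read from these counts. The 5 most alike were Bcar1, a scaffold protein of focal adhesions (0.993), Retreg3, a receptor of endoplasmic reticulum autophagy (0.987), Gpsm1, a regulator of G protein signalling (0.987), Irx5, a homeobox gene (0.984), and Arf3, a small GTPase of the Golgi (0.984). None of these 5 is among the 10 above, but 3 of those 10 (Reep5, Gap43 and Slc39a8) also had an r over 0.95 on deviations.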

How the data were processed

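RNA of 6 pools was measured on Affymetrix mouse arrays. The authors deposited 1 scaled linear intensity per probe set and array, and Affymetrix Expression Console and MAS5 are named per the submitters' processing notes. Versions, scaling target and the choice of the 19606 listed probe sets are not given in the sources used here. Of 19551 probe sets that are not array controls, 17348 had 1 gene symbol, 494 several and 1709 none in the platform annotation, and 17316 matched the RefSeq gene table of GRCm38.p6.

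Signals were analysed as log2(signal + 1), keeping the authors' scaling. Probe sets below the 40th percentile of mean log2 signal (geometric mean signal of 349) were left out, and a gene was its brightest tested probe set, which left 7245 genes. Both members passed this filter, Mt1 through its mutant pools. limma (version 3.58.1, R 4.3.3; lmFit, eBayes with trend, two-sided) compared 3 mutant with 3 control pools, and an adjusted p under 0.05 over all 7245 genes was called. It was tested on simulated data. The number of arrays limits the precision, and median SE was 0.14. Nothing in the labels says how the pooled embryos were drawn, so p-values measure the spread between these pools.

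Named was every member called. Otherwise up to 3 genes with the smallest p of each pathway list were named, and up to 2 of each cell type list. The 10 and 5 genes most alike in profile were named as well. These rules hold except where stated. Pcdh8, Foxf1, Tal1, Atox1, Bmp4, Osr1 and some endoderm markers were added after their values were seen. So were the genes below the signal filter other than Mtf1. Clone, Rik, Gm and LOC symbols would have been counted only, and 0 came up. Members, lists and tests were chosen with earlier results of these data known. Alternatives covered scaling, offset, filter, variance model, replicate number, probe set kind, dap ratio and leaving out each pool. Promoter windows are RefSeq sequence of GRCm38.p6.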

Additional observations from a re-analysis of the deposited data

How the results depend on the processing

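Mt1 and Mt2 were higher in mutant under every alternative that gave a value. Mt2 had a log2 difference of 2.75 within the arrays with a dap ratio above 15 and 0.99 within those below it, and the cause was not tested. With 1 pool left out, Mt1 had 1.02 to 1.81 and Mt2 1.59 to 2.30. Without _x_at and _s_at probe sets Mt1 had no value. Within each set of arrays the genotype with 1 pool is assumed to vary like the other.

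Median centring moved the split of called genes to 43 higher and 105 lower, against 43 and 80 as reported. The count of called genes, 123 as reported, was 74 with the filter at the 60th percentile, 943 with array quality weights, 472 with the spike-in ratio block, 475 within the arrays with a dap ratio above 15 and 244 within those below it. With 1 pool left out it was 19 (without mutant 1) to 230 (without control 1). All 123 genes were among those called with the weights or the spike-in ratio block. Of the zinc genes, 1 rose (Slc39a8) with array quality weights, with the spike-in ratio block and within the arrays above 15, where 2 fell (Slc39a10 and Slc30a9, named after their values were seen). Of the other lists with 0 called as reported, the alternatives called at most 2 copper, 1 iron, 1 Nrf2, 1 Stat3 and 1 heat shock gene higher, and at most 1 iron, 1 glucocorticoid, 2 heat shock and 1 hypoxia gene lower, and 0 neural tube genes or chromosomal neighbours.

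Equal replicate numbers had residual correlations of 0.12, −0.45 and 0.35 between genotypes, and 2 of the 6 arrays correlated best with their own number, so the pools were not treated as pairs. With the replicate block, the differences were 1.50 for Mt1 and 1.94 for Mt2, 176 genes passed, sharing 115 with the 123 above, and 7 visceral endoderm markers rose.

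Of 61 other named genes under the alternatives, 1066 of 1192 values kept their direction and side of the threshold, 50 lost and 68 gained a call, and 8 changed sign, all of them uncalled. Those were Atp7a when probe sets were averaged by gene (0.015), within the arrays above 15 Bag3 (0.0018), Slc2a1 (−0.041), Slc39a14 (0.17) and Zbtb16 (0.044), and within those below 15 Hspa1b (−0.64) and Kdm3a (0.029). With 1 pool left out Slc39a14 had −0.16 to 0.026, the positive value being without control 2. The cause of these changes was not tested.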
